A study of Mus musculus with 6 samples.

Results

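The subject is the core of NF-kappaB signalling in mouse liver: the DNA-binding subunits, their inhibitors, and the kinase and adaptors that hold the pathway in check. All probe sets named for 10 genes were taken, whatever their measured values. The genes themselves were chosen with earlier results of these data known. Of these genes 8 had probe sets, 16 in all among 45037 on the array, namely Rela, Nfkbia, Nfkbie, Nfkb2, Relb, Map3k14, Traf2 and Birc3. The other 2, Nfkb1 and Traf3, had no probe set under their name in the annotation used and were not analysed here. Total liver RNA was measured in 3 samples from LIGHT Tg mice, which carry a transgene for LIGHT, and 3 from WT mice of strain B6. Each sample had 1 Affymetrix array. The mice of all 6 samples were 4 to 8 weeks old and had eaten the high-fat diet TD88137 for 2 weeks. The titles and source names give these groups, while the free-text description of every sample, LIGHT Tg included, speaks of wild-type mice. The labels name neither the promoter that drives the transgene nor the strain of the LIGHT Tg mice, so strain and transgene cannot be told apart.

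NF-kappaB factors are dimers that wait in the cytoplasm. In the canonical arm, receptors such as those for tumour necrosis factor activate a kinase complex that destroys the inhibitors IkappaBalpha (Nfkbia) and IkappaBepsilon (Nfkbie), which frees dimers that contain RelA. In the non-canonical arm, the lymphotoxin beta receptor, which binds LIGHT, disbands a complex of TRAF2, TRAF3 and the cIAP ubiquitin ligases that otherwise degrades the kinase NIK (Map3k14). NIK then accumulates and drives the cutting of p100 (Nfkb2) to p52, the partner of RelB. Much of this control acts on protein, which an array does not measure. Nfkbia and Nfkb2 are also known targets of NF-kappaB, and their transcripts serve as a readout of its activity.

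The promoter windows of those target genes are shown because both genes carry NF-kappaB binding motifs there. Each run is the 250 bases before the RefSeq start (the most upstream one in the table), 5′ to 3′ on the gene's strand in GRCm38.p6, with matches to the kappaB consensus, on either strand, in capitals. Nfkbia lies on the minus strand, at chr12:55492648-55492897, and Nfkb2 on the plus strand, at chr19:46304487-46304736.
Nfkbia: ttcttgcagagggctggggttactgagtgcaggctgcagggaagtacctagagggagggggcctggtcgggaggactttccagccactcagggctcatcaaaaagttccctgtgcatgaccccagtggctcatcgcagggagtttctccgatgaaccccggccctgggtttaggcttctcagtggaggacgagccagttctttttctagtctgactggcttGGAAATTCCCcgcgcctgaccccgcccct
Nfkb2: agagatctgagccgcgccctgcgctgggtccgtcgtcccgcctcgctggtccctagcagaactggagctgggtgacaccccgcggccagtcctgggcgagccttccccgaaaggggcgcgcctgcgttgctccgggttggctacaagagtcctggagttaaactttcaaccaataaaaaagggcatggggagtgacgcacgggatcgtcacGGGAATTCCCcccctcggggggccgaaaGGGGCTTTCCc
The Nfkbia window holds 1 match, GGGAATTTCC read on the opposite strand, 20 to 29 bases before the start. The Nfkb2 window holds GGGAATTCCC, a palindrome that matches on both strands, 30 to 39 bases before the start, and GGGGCTTTCC 2 to 11 bases before it. Of the 8 of 10 genes with a window in the table, 3 hold such a match (the third is Traf3), against 4.81% of 27025 genes. The looser motif GGGNNNNNCC, searched on both strands with overlaps allowed, occurred in all 8 and in 45.4% of all genes, and it includes every match to the stricter one. These 8 are not the 8 with probe sets, since they include Traf3 and lack Relb and Nfkb1. Their windows were between 43.6% and 85.2% G and C, against a median of 52% over all genes. Only that of Birc3 lay below this median, so most were rich in the letters of the motif. These matches describe the letters and not binding.

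The arrays fall into sets by the number in their titles, and each set holds both genotypes: LIGHT Tg 77 with WT 78, and LIGHT Tg 34 and 35 with WT 30 and 31. The labels do not say what the number stands for. The first principal component, 48% of the variance, separated the sets, and the second, 30.3%, separated the genotypes. LIGHT Tg 77 and WT 78 had a signal of 166.1 and 147.4 at the middle control probe set of 18S ribosomal RNA, against 17840 to 19520 on the other 4 arrays. At the brightest probe set for Xist, an RNA made from the silenced X of females, they had 406.6 and 444, against 7993 to 9714. At the brighter probe set of the Y-linked gene Eif2s3y they had 1272 and 1037, against 2.1 to 2.82. The sets thus follow a male and a female pattern and also differ at the 18S control. Sex and any other difference between the sets therefore cannot be told apart. Results are therefore also given with the set as a block and within each set. The labels do not say outright that every array had its own mouse. The p-values thus reflect only the scatter of these samples, which within a set may be technical. At the brighter Tnfsf14 probe set, the gene for LIGHT, signals were 55.7, 19.3 and 26.7 in LIGHT Tg 77, 34 and 35, against 7.7, 11.9 and 7.43 in WT 78, 30 and 31. That is a dim signal, 1.80 ± 0.594 higher on the log2 scale (SE, n = 3 per group) without passing in limma (adjusted p = 0.423). The dimmer probe set had the opposite sign (-0.55, adjusted p = 0.942). Neither checks anything if the transgene's RNA lacks the stretch that the probes read, which the labels do not tell. The hepatocyte markers Alb, Apoa1, Ttr, Cps1 and Tat summed to between 96230 and 100800 in LIGHT Tg, and between 96120 and 101500 in WT.

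None of the NF-kappaB core genes passed the test between LIGHT Tg and WT livers. Of their 16 probe sets, 11 passed the filter on low signal, and 0 of those 11 passed 5% FDR in limma, against 1.17% of all 22519 probe sets tested. At an unadjusted p below 0.05 there were also 0, against 11% of all. The lowest adjusted p was 0.551. Within both sets of arrays 3 of the 11 lay on the same side of WT with no overlap, Rela above and 2 of Nfkbia below, against 36.4% of all. With the title-number set as a block 0 passed again, against 6.47%, and the lowest adjusted p was 0.103, for Rela. With the block 4 had an unadjusted p below 0.05 (22.6% of all): Rela, which was higher in LIGHT Tg, and 3 probe sets of Nfkbia, which were lower. In whole liver, fewer cells of a type and less RNA per cell cannot be told apart.

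**Figure D1:**
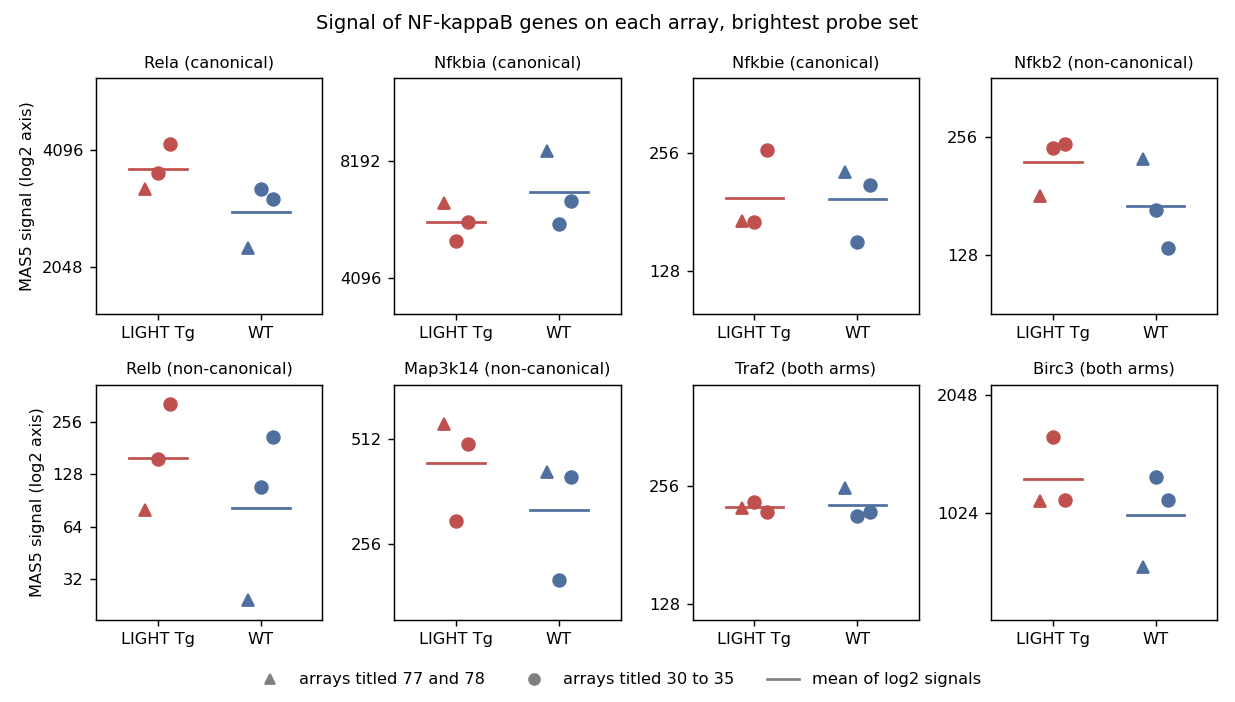
MAS5 signal (log2 axis, with its own range per panel) of the brightest probe set of each of the 8 genes, by genotype. Each point is 1 array, triangles are LIGHT Tg 77 and WT 78, and bars are means of log2 signals over 3 arrays. Points of the genotypes overlap in every panel.

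Rela encodes p65, the transactivating subunit of the canonical dimer. Its single probe set had signals of 3238, 3558 and 4224 in LIGHT Tg 77, 34 and 35, against 2297, 3245 and 3059 in WT 78, 30 and 31. LIGHT Tg was higher within each set, but LIGHT Tg 77 lay just below WT 30, so the genotypes overlap. On the log2 scale the difference was 0.36 ± 0.183 (SE, n = 3 per group; limma adjusted p = 0.552), a fold of 1.29 with a 95% interval from 0.957 to 1.73. It was 0.50 within the arrays titled 77 and 78 and 0.30 in the others. The block cannot change the difference, since each set holds as many LIGHT Tg as WT arrays. With it the SE was 0.109 and the adjusted p 0.103.

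Nfkbia encodes IkappaBalpha, the inhibitor that NF-kappaB induces as its own brake. It had 5 probe sets, all past the filter, and they disagreed in size and sign. The brightest, 1420088_at, had signals of 6375, 5096 and 5698 in LIGHT Tg 77, 34 and 35, against 8693, 5630 and 6471 in WT 78, 30 and 31. The genotypes overlap there, with WT 78 far above the rest, and the log2 difference was -0.26 ± 0.183 (adjusted p = 0.732, and 0.2 with the block). At 1448306_at, the one annotated with a RefSeq transcript, signals were 852, 1286 and 1276 in LIGHT Tg, against 1441, 1445 and 1553 in WT. All LIGHT Tg values lay below all WT values at this probe set, the 1 of 11 tested whose genotypes do not overlap, against 17.4% of all probe sets tested. Its log2 difference was -0.40 ± 0.202 (SE, n = 3 per group), a fold of 0.756 with an interval from 0.545 to 1.05. It did not pass in limma (adjusted p = 0.551, and 0.155 with the block).

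The other 3 probe sets of Nfkbia had overlapping genotypes. At 1438157_s_at signals were 2377, 5498 and 5659 in LIGHT Tg, against 3789, 5721 and 6771 in WT. At 1449731_s_at they were 1359, 2492 and 2238 in LIGHT Tg, against 2162, 2329 and 2574 in WT. LIGHT Tg 77 was the lowest array at both and at 1448306_at. Their log2 differences were -0.33 ± 0.372 and -0.26 ± 0.242, and without LIGHT Tg 77 they were 0.081 and 0.008. The dimmest, 1420089_at, had 437.8, 576.3 and 453.8 in LIGHT Tg, against 467.5, 418.6 and 429.8 in WT, and a log2 difference of 0.15 ± 0.189. So 4 of the 5 probe sets had a negative value and 1 a positive one. Adjusted p for these 3 lay between 0.831 and 0.898.

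The sets of arrays also differed at Nfkbia, and not in one direction. With the genotype in the fit, 2 of the 11 tested NF-kappaB probe sets differed between the arrays titled 77 and 78 and the others at 5% FDR, against 27.4% of all probe sets. Both belong to Nfkbia. At 1438157_s_at the arrays titled 77 and 78 were lower (log2 difference -0.97, limma adjusted p = 0.00465), while at 1420088_at they were higher (0.38, adjusted p = 0.0401). Between LIGHT Tg 77 and WT 78 the log2 difference was -0.45, -0.67, -0.67, -0.76 and -0.095 (brightest to dimmest probe set). In the arrays titled 30 to 35 it was -0.16, -0.16, -0.05, -0.23 and 0.27. At all 5 the value between LIGHT Tg 77 and WT 78 was thus the lower one. The test of that difference, the interaction of genotype and set, gave unadjusted p between 0.0334 and 0.280 and adjusted p of at least 0.409, and did not pass. Of all probe sets 0.0666% passed it.

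Nfkbie encodes IkappaBepsilon, a related inhibitor. Its brighter probe set had signals of 171.5, 170.2 and 260.5 in LIGHT Tg 77, 34 and 35, against 229.1, 151.5 and 212.6 in WT 78, 30 and 31. The ranges nearly coincide, with LIGHT Tg 35 highest and WT 30 lowest. The log2 difference was 0.01 ± 0.301 (SE, n = 3 per group; adjusted p = 0.997), with a fold interval from 0.619 to 1.65. It turned to -0.19 without LIGHT Tg 35 and to -0.17 without WT 30. The dimmer probe set, below the filter, had 85.4, 134.4 and 216.9 in LIGHT Tg, against 61.2, 113.9 and 143.4 in WT (log2 difference 0.44 ± 0.499).

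**Figure D2:**
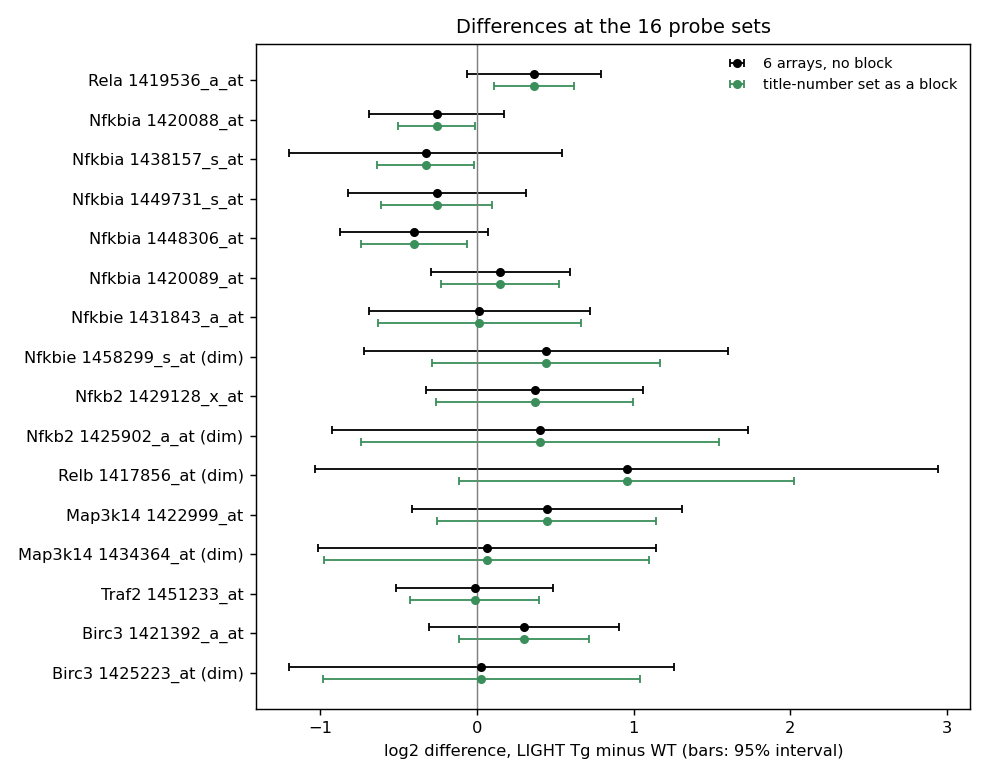
Log2 difference, LIGHT Tg minus WT, at each of the 16 probe sets, with 95% intervals from limma, without a block (black) and with the title-number set as a block (green). "Dim" marks the 5 probe sets below the filter on low signal. Every black interval crosses 0, and 4 green ones do not, those of Rela and of 3 Nfkbia probe sets, before any adjustment for the number of tests.

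In the non-canonical arm all 3 genes measured had positive log2 differences at their brightest probe set, and none passed. Nfkb2 encodes p100, the precursor of p52. Its brighter probe set had signals of 181.8, 241.2 and 246.2 in LIGHT Tg 77, 34 and 35, against 225.5, 167.1 and 133.4 in WT 78, 30 and 31. In the arrays titled 30 to 35 both LIGHT Tg values lay above both WT values, but LIGHT Tg 77 lay below WT 78. The log2 difference was 0.37 ± 0.295 (adjusted p = 0.775), a fold of 1.29 with an interval from 0.798 to 2.09. It was 0.71 in the arrays titled 30 to 35 (limma adjusted p = 0.179 there, where 4.25% of all probe sets passed) and -0.31 between LIGHT Tg 77 and WT 78. The interaction of genotype with set had an unadjusted p of 0.0460 and an adjusted p = 0.442. Array weights moved the difference to 0.73 (adjusted p = 0.0673), and without WT 31 it was 0.19. The probe set below the filter had 43.9, 57.6 and 157.2 in LIGHT Tg, against 47.3, 59.4 and 61.4 in WT, and only LIGHT Tg 35 stood out there. Its log2 difference was 0.40 ± 0.571, and -0.146 without that array.

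Relb encodes the partner of p52. Its single probe set lay below the filter, with signals of 79.5, 157.6 and 322.5 in LIGHT Tg 77, 34 and 35, against 24.3, 108.5 and 209.8 in WT 78, 30 and 31. These values spread more within a genotype than between the genotypes, and the arrays titled 77 and 78 were the lowest of the 6. The log2 difference was 0.96 ± 0.853, a fold of 1.94 with an interval from 0.489 to 7.70 (adjusted p = 0.927 over all 45037 probe sets, and 0.369 with the block). It was 1.71 between LIGHT Tg 77 and WT 78, and 0.58 in the others. It dropped to 0.08 without WT 78, to 0.45 without LIGHT Tg 35 and to 0.51 with array weights. It was 1.46 without LIGHT Tg 77 and 1.63 without WT 31, so single arrays set its size.

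Map3k14 encodes NIK, the kinase whose stabilisation starts the non-canonical arm. Its brighter probe set had signals of 565.3, 297.6 and 496.7 in LIGHT Tg 77, 34 and 35, against 412.2, 201 and 398.8 in WT 78, 30 and 31. LIGHT Tg 34 and WT 30 were the low array of their genotype, and the genotypes overlap. The log2 difference was 0.45 ± 0.368 (SE, n = 3 per group; adjusted p = 0.782, and 0.426 with the block), a fold of 1.36 with an interval from 0.749 to 2.48. It was alike in the sets, 0.46 between LIGHT Tg 77 and WT 78 and 0.44 in the others. It was 0.72 without LIGHT Tg 34, 0.11 without WT 30 and 0.26 without LIGHT Tg 77. The other probe set, below the filter, had signals from 7.8 to 10.7 in LIGHT Tg and from 8.1 to 8.76 in WT.

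Traf2 and Birc3 encode an adaptor and a ubiquitin ligase (cIAP2) that serve both arms. They carry the canonical signal at tumour necrosis factor receptors, and in resting cells they keep NIK low. Traf2 varied least of the 8 genes, with signals of 225.9, 232.9 and 220.6 in LIGHT Tg 77, 34 and 35, against 253.2, 214.7 and 220.7 in WT 78, 30 and 31. Its log2 difference was -0.02 ± 0.214 (adjusted p = 0.995), with a fold interval from 0.698 to 1.40. The brighter Birc3 probe set had 1097, 1604 and 1108 in LIGHT Tg, against 743, 1268 and 1108 in WT, with LIGHT Tg 34 highest and WT 78 lowest. Its log2 difference was 0.30 ± 0.259 (adjusted p = 0.802, and 0.373 with the block), a fold of 1.23 with an interval from 0.808 to 1.88. It was 0.56 between LIGHT Tg 77 and WT 78, 0.17 in the others, 0.08 without WT 78 and 0.12 without LIGHT Tg 34. The dimmer Birc3 probe set, below the filter, had 52.1, 134.6 and 177.6 in LIGHT Tg, against 105.4, 82.9 and 134.4 in WT (log2 difference 0.03 ± 0.528). It was lower in LIGHT Tg 77 than in WT 78 by a log2 difference of -1.02, and 0.55 higher in the others.

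**Figure D3:**
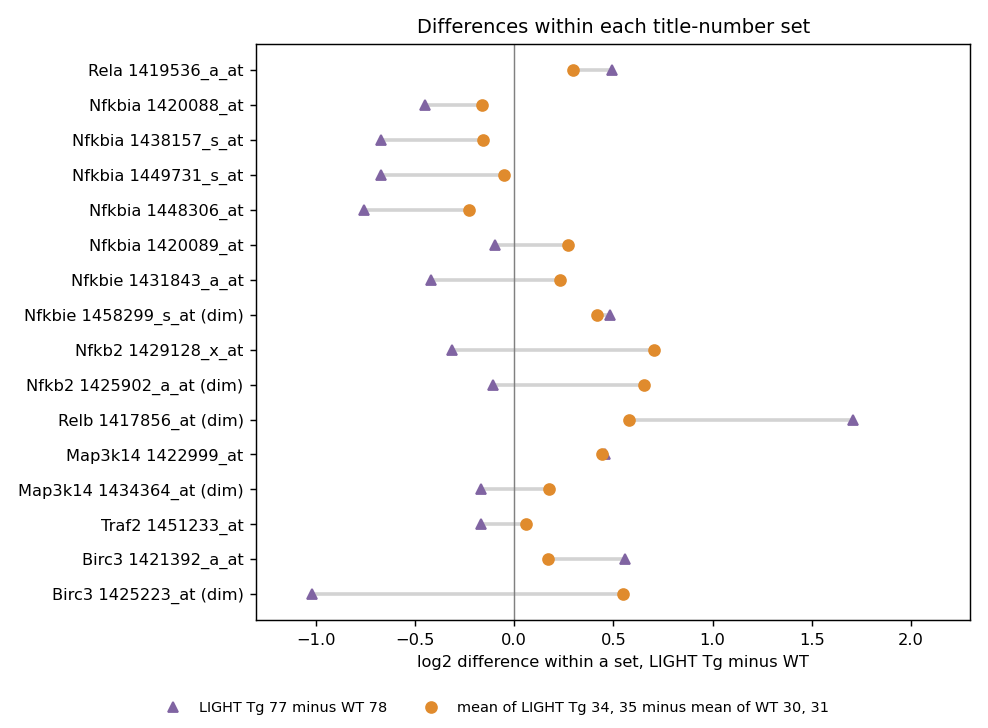
Log2 difference, LIGHT Tg minus WT, within each title-number set: LIGHT Tg 77 minus WT 78 (triangles), and the mean of LIGHT Tg 34 and 35 minus the mean of WT 30 and 31 (circles). "Dim" marks the 5 probe sets below the filter. Rela, Relb, the brighter Map3k14 and Birc3 probe sets and the dimmer Nfkbie one lie right of 0 in both sets, 4 Nfkbia probe sets lie left of 0 in both, and each Nfkb2 probe set has a point on either side.

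Set side by side, the arms differed in sign at some genes and overlapped from array to array. In the canonical arm the log2 differences at the brightest probe sets were 0.36 for Rela, -0.26 for Nfkbia and 0.01 for Nfkbie, with a median of 0.01. In the non-canonical arm they were 0.37 for Nfkb2, 0.96 for Relb and 0.45 for Map3k14, with a median of 0.45. The median over all probe sets tested was -0.01. The gap of 0.43 between the arm medians became 0.16 when each gene was taken as the mean of its probe sets. Leaving out 1 array gave 0.40 to 0.60. For each array the deviation of every gene from its WT mean was taken, and the canonical median was subtracted from the non-canonical one. That value was 0.18, 0.69 and 0.21 in LIGHT Tg 77, 34 and 35, against 0.13, 0.24 and 0.20 in WT 78, 30 and 31. LIGHT Tg 34 stood above the others, and the other 2 LIGHT Tg arrays lay within the WT range. No test is given for these summaries, which rest on 3 genes an arm. The canonical arm lacks Nfkb1 and the non-canonical arm lacks Traf3.

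The rest of the pathway was read from lists by role, and a few genes stand in more than one. Of 74 genes with a probe set, 48 were past the filter at their brightest one and 26 were below it. At those probe sets 0 of the 48 passed 5% FDR in limma, against 1.17% of all. At an unadjusted p below 0.05 there were 3 (11% of all), and in 5 the genotypes did not overlap (17.4%). With the block 1 passed, against 6.47%.

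Of 14 TNF-family ligands and receptors, 9 were below the filter and 0 of the other 5 passed (median log2 difference -0.001). Tnfrsf1b, the second receptor for tumour necrosis factor, had signals of 506.9, 626.9 and 630.5 in LIGHT Tg 77, 34 and 35, against 935.3, 1023 and 1018 in WT 78, 30 and 31. All LIGHT Tg values lay below all WT values. The log2 difference was -0.76 ± 0.170 (limma adjusted p = 0.111). It passed with the block (adjusted p = 0.0140), with array weights (0.00939) and in the arrays titled 30 to 35 alone (0.0497). In these fits 1457, 1992 and 956 of all 22519 probe sets passed. The other probe set of Tnfrsf1b had 0.07 (adjusted p = 0.992). Tnfrsf11a, which encodes RANK, had 385.8, 249.6 and 303.9 in LIGHT Tg, against 132.8, 97.3 and 208.6 in WT, with no overlap (1.15 ± 0.348, adjusted p = 0.246, and 0.0860 with the block). Its other probe set, below the filter, had -1.04. Ltbr, the LIGHT receptor that feeds the non-canonical arm, had 2361, 1398 and 1340 in LIGHT Tg, against 3337, 1518 and 1859 in WT. These overlap, with both high values on the arrays titled 77 and 78 (log2 difference -0.36 ± 0.344, adjusted p = 0.833). Tnfrsf14, the other LIGHT receptor, was below the filter (0.66 ± 0.542), and Cd40lg had 0.03 ± 0.384.

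Of 17 kinases and adaptors, 16 were tested and 0 passed, with 8 positive and 8 negative values and a median of 0.03. The largest moderated statistics belonged to the adaptors Traf5 (0.35 ± 0.233) and Traf4 (0.56 ± 0.397), to Tab2, which links TAK1 to ubiquitin chains (0.21 ± 0.208), and to the kinase Tbk1 (-0.24 ± 0.234). Traf4 had 868.4 in LIGHT Tg 77, with 359.3 and 318.3 in LIGHT Tg 34 and 35, against 253.6 to 368.4 in WT, so 1 array made its difference. Its other probe set, below the filter, had the opposite sign (-0.81). The other probe sets of Traf5, Tab2 and Tbk1 had 0.59, -0.001 and -0.03. The kinase subunit Ikbkb, named outside the rule for its small spread, had a log2 difference of -0.003 ± 0.141 at the brightest of its 5 probe sets, and 0.68, 0.14, 0.39 and -0.57 at the others. Of 16 other subunits and inhibitors, 13 were tested and 0 passed, with a median of 0.01. They include Nkiras1 (0.36 ± 0.206), Tnfaip3, the deubiquitinase A20 (0.34 ± 0.342), Cyld (-0.17 ± 0.194) and Nfkbil1 (-0.23 ± 0.307). The other probe set of Tnfaip3, below the filter, had -0.125, and the other 3 of Cyld lay between -0.305 and -0.03. Adjusted p for the genes named by the rule in both lists lay between 0.635 and 0.902.

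Of 24 canonical target genes, 13 were tested and 0 passed, with 7 positive and 6 negative values and a median of 0.004. The cytokine Il1b had signals of 274, 242.9 and 413.6 in LIGHT Tg 77, 34 and 35, against 223.5, 166.3 and 194.4 in WT 78, 30 and 31, with no overlap (0.64 ± 0.280, adjusted p = 0.470). Irf1, a transcription factor, had 1635, 1248 and 1302 in LIGHT Tg, against 1755, 1730 and 1871 in WT, also without overlap but lower (-0.37 ± 0.162, adjusted p = 0.480). It passed with array weights (adjusted p = 0.0324), as did 1992 of all 22519 probe sets. The adhesion molecule Vcam1 had 0.31 ± 0.195 at its brightest of 3 probe sets, and 0.14 and -0.12 at the others. Lcn2, an iron-scavenging acute phase protein, had 14160, 926.3 and 7405 in LIGHT Tg, against 12820 to 13360 in WT. LIGHT Tg 34 was far below the rest, and the log2 difference was -1.52 ± 0.886 (adjusted p = 0.642).

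Of 6 non-canonical target genes, 3 were tested and 0 passed at the brightest probe set. These were the chemokines Cxcl12 (-0.32 ± 0.125, adjusted p = 0.403) and Cxcl13 (0.09 ± 0.364), and Tnfsf13b, which encodes BAFF (-0.10 ± 0.472). The other probe set of Cxcl13 had 0.07, and those of Tnfsf13b had -0.004 and -0.296. At Cxcl12 all LIGHT Tg values lay below all WT values, with 4110, 4813 and 4014 in LIGHT Tg 77, 34 and 35, against 5605, 5299 and 5172 in WT 78, 30 and 31. Its second probe set fell by 0.97 on the log2 scale in LIGHT Tg (limma adjusted p = 0.0480, and 0.00586 with the block). Its dimmest, below the filter, had 0.125. The second was the 1 of 91 tested probe sets of the pathway genes past 5% FDR, against 1.17% of all probe sets, which is a share near the background.

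**Figure D4:**
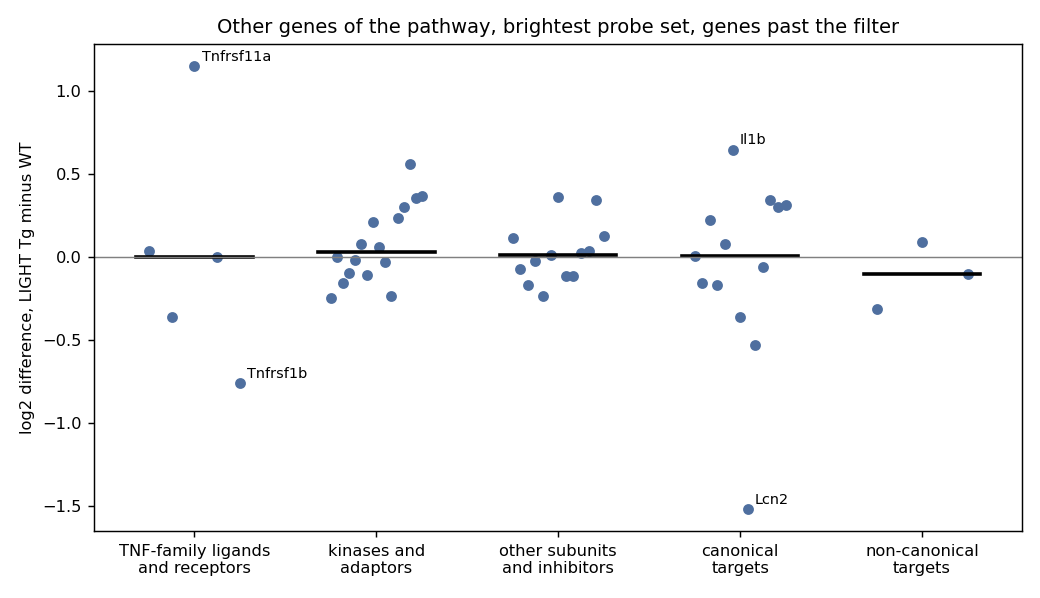
Log2 difference, LIGHT Tg minus WT, of the other pathway genes past the filter, each at its brightest probe set, by list. Points are genes in alphabetical order, black bars are list medians, and genes beyond 0.6 in either direction are named. The medians lie between -0.10 and 0.03.

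Cell type markers were set beside these values, since the pathway is active in non-parenchymal cells too. Of 42 markers measured, none was listed at 0, and the lowest signal was 5.74. Without detection calls this does not show that each marker was detected. Of 6 endothelial markers 1 rose in LIGHT Tg, Lyve1 (log2 difference 1.24 ± 0.2, limma adjusted p = 0.0393), and their summed signal was 9362 to 11980 in LIGHT Tg, against 6600 to 7567 in WT. Stab2 did not pass (0.75 ± 0.176, adjusted p = 0.125), but did with the block (0.0127) and in the arrays titled 30 to 35 (0.0275). The other endothelial log2 differences were 0.36 (Clec4g), 0.19 (Pecam1), 0.12 (Cdh5) and -0.09 (Kdr), and none of these passed. The sums for 8 Kupffer cell and macrophage markers were 20050 to 32340 in LIGHT Tg and 28860 to 32890 in WT. Those for 5 stellate cell markers were 3512 to 4347 in LIGHT Tg, against 4441 to 5988 in WT, with no overlap. Among them Lrat had a log2 difference of -1.25 ± 0.436 (adjusted p = 0.328, 0.0619 with the block, and 0.0256 in the arrays titled 30 to 35). The other stellate markers had -0.46 (Des), -0.28 (Hand2), -0.21 (Reln) and 0.01 (Pdgfrb), and none passed. At each single stellate marker, Lrat included, the genotypes overlap. Sums overlapped for 4 bile duct (413.7 to 3943 in LIGHT Tg and 732.6 to 6224 in WT), 4 B cell (932.6 to 1127 and 879.5 to 1181), 6 T cell (878.9 to 975.1 and 825.2 to 918.5) and 4 neutrophil markers (780 to 4753 and 1371 to 3023). Of these, 3 bile duct, 2 B cell, 5 T cell and 1 neutrophil markers were below the filter. The bile duct sum was mostly Epcam (219.3 to 5846 over the 6 arrays) and the T cell sum mostly Cd8a (500.2 to 617.1). The part of cell makeup in the values of the NF-kappaB genes was not tested.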

How the data were processed

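The table holds MAS5 intensities of 6 arrays as the authors deposited them, a single linear-scale signal for each probe set. The submitters' processing notes name MAS5. Its version and target value are not stated there, and no detection calls were used. Probe sets were named from the array's annotation table, and the symbols were checked against RefSeq names of GRCm38.p6, which altered 0 of them.

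Signals below 1 were set to 1 and log2 was taken. The genotypes were compared with limma 3.58.1 under R 4.3.3, by lmFit followed by eBayes, with the prior variance following the signal level. Of 45037 probe sets without controls, the 22519 with a mean log2 signal at or above the median of 7.387 were tested. The test was two-sided, with Benjamini-Hochberg adjustment over all of them and a threshold of 5% FDR. Values of probe sets below this filter come from the fit on all 45037. Each gene is represented by the probe set with the highest mean, and the other probe sets of the members are given beside it. Where a mean over a gene's probe sets is used, that is said.

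The members, the arms and the gene lists were chosen with earlier results of these data known. Named besides the members are Tnfsf14, Ltbr and Tnfrsf14, and from each list the genes past the threshold, or else up to 4 with the largest moderated statistic. Genes named outside this rule were chosen after their values were seen. The alternatives were other filters, an offset of 37.5 before log2, quantile normalization, a common median, no variance trend, array weights, the title-number set as a block, the arrays titled 30 to 35 alone, each array left out, and the mean of a gene's probe sets. The steps were tested on simulated data. Promoter windows are from RefSeq. Figures were drawn with matplotlib 3.10.9.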

Additional observations from a re-analysis of the deposited data

How the results depend on the processing

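No NF-kappaB core gene passed 5% FDR under any of the alternatives run, including each array left out (0 to 0). Over all probe sets the count of 264 became 148 without the variance trend, 1992 with array weights, 1457 with the title-number set as a block, 956 in the arrays titled 30 to 35 alone, and 43 to 306 with 1 array left out (80 without LIGHT Tg 34, 43 without LIGHT Tg 35, 68 without WT 30 and 63 without WT 31). The gap between the arm medians, non-canonical minus canonical, of 0.432 became 0.158 with the mean of all probe sets of a gene, and lay between 0.396 and 0.605 with 1 array left out. Of the 48 pathway-list genes tested, 2 passed with array weights, where 1992 of all 22519 probe sets did. With the block 1 passed (6.47% of all), and in the arrays titled 30 to 35 also 1 (4.25% of all). The main fit had 0 of these genes, and so did each fit with 1 array left out. The interaction of genotype and set passed at 15 probe sets, at 3 with no filter and at 2 without the trend, and at 0 NF-kappaB genes in each. Nfkbie turned to -0.188 without LIGHT Tg 35 and to -0.166 without WT 30, in a range up to 0.132 with 1 array left out. Traf2, near 0, turned to 0.027 with array weights, 0.058 in the arrays titled 30 to 35, 0.002 without LIGHT Tg 35 and 0.056 without WT 78, in a range down to -0.063 with 1 array left out. The cause was not tested. The other 116 values of single genes kept direction and side of the threshold. Other filters, no variance trend and the block cannot change a log2 difference, so there only the side of the threshold was free. The stricter filter at the 75th percentile left no value for Nfkbie, Nfkb2, Traf2, Map3k14 or Relb.

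Replicate numbers in the titles differ between the genotypes. No paired analysis was possible because LIGHT Tg and WT share no number, and the title-number set stands in as the block. With 3 arrays a genotype and no detection calls, a missed threshold does not show that the levels are alike. The 5 NF-kappaB probe sets below the filter level of 167.4 had SEs of 0.463 to 0.853, and the 11 above it 0.183 to 0.372.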

Other observations

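Rel, which encodes the subunit c-Rel of blood cells, was below the filter and spread across the arrays in much the way Relb did. Its signals were 53.4, 138.4 and 166.6 in LIGHT Tg 77, 34 and 35, against 13.6, 91.8 and 123.2 in WT 78, 30 and 31. In both genes the arrays titled 77 and 78 were the lowest of the 6, with the LIGHT Tg array above the WT array. The log2 difference of Rel was 0.999 ± 0.894 (limma adjusted p = 0.927 over all 45037 probe sets). Both genes were set side by side after their values were seen.

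Among the pathway genes, some probe sets other than the brightest passed with the title-number set as a block and not without it. With the block 4 of the 91 tested passed, against 6.47% of all probe sets, which puts them below the background share. These 4 include the brightest Tnfrsf1b probe set, and the second Cxcl12 probe set, which also passed without the block. The rest are 1 probe set of Otud7b and 1 of Gadd45b. One of 4 probe sets of the deubiquitinase gene Otud7b, which acts on TRAF3, had 0.73 (adjusted p = 0.187, and 0.0215 with the block), while the other 3 lay between 0.02 and 0.27. Gadd45b, a stress response gene that NF-kappaB induces, had 1.25 at one probe set (adjusted p = 0.369, and 0.0490 with the block) and -0.17 at a brighter one. Its dimmest probe set, below the filter, had 2.54 (adjusted p = 0.134 over all 45037 probe sets, and 0.0218 with the block). Both were chosen after their values were seen.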
